A study of Mus musculus with 14 samples.

Results

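Fatty acid oxidation, ketone and peroxisome genes were followed in mouse tumours treated with an inhibitor of ACSS2, the enzyme that makes acetyl-CoA from acetate. The group holds 30 genes, chosen by name from the 51789 genes of the deposited count table, and all 30 were measured and tested. Each of 14 libraries came from bulk tumour RNA, read at the 3' end of polyadenylated transcripts with a QuantSeq kit. Tumours of the strain written NGS mouse gave 3 libraries with vehicle and 3 with the inhibitor, written ACSS2i, and tumours of the strain written C57BI/6 mouse gave 4 of each. The labels do not say what NGS stands for, and no immune status was assumed. No source used here gives the tumour cells, the inhibitor's dose and duration, or the age of the mice. A line on the design speaks of different Bmal1 status, but no label gives a library such a status. The labels number the replicates without saying that each came from a separate animal, so p-values measure the spread between these libraries.

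Long-chain fatty acids enter cells partly through the scavenger receptor Cd36. They are carried into mitochondria as carnitine esters, a step that Cpt1a (liver type) or Cpt1b (muscle type) limits. There they are shortened in cycles of dehydrogenation, hydration, a further oxidation and thiolytic cleavage, which release acetyl-CoA. Electrons pass through the electron transfer flavoprotein to the respiratory chain. Peroxisomes shorten very long and branched chains. Tissues other than liver use ketone bodies by way of Bdh1 and Oxct1. The nuclear receptors Ppara and Ppard and the coactivator Ppargc1a raise many of these genes in muscle, heart and liver, and Pdk4 shifts fuel use from glucose to fat.

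Library totals were 4207301 to 4701101 counts for NGS vehicle, 2846161 to 4035025 for NGS ACSS2i, 17645504 to 19198649 for C57BI6 vehicle and 18392953 to 20344809 for C57BI6 ACSS2i. Depth followed the host, so host, depth and any batch cannot be told apart. The first principal component, 60.5% of the variance, separated the hosts, and NGS ACSS2i replicate 2 stood apart on the second (11.1%). Levels are counts scaled to a common library size with the TMM factor of each library (CPM), and differences are log2 fold changes with the standard error (SE) of the edgeR quasi-likelihood model. In bulk tumour RNA, fewer cells of a type and less RNA per cell cannot be told apart. Of the 30 genes, 25 had a mean of 5 CPM or more over all libraries, and Cpt1b, Bdh1, Ppara, Ppargc1a and Pdk4 were below it, with 0 to 3 counts in their lowest library. The label tumour is not specific to a cell type. The sum of 10 epithelial markers was 225 to 712 CPM, but its genes differed widely, and Epcam was at 0 to 3.84 CPM. The highest sum was in NGS vehicle replicate 1, also the highest in skin markers, with 1523 counts of Krt14 and 832 of Krt5. In C57BI6 vehicle replicate 1 these 2 genes were at 0, and Krt8 held 6163 counts. The sum is therefore not a measure of tumour cells. Of 12 T and NK cell markers 9 were higher in C57BI6 than in NGS vehicle, and Cd3e was at 0 in all 6 NGS libraries, which allows up to 0.606 to 0.988 CPM (3 counts of a library, counting error only).

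Cpt1a and Acads, the short-chain acyl-CoA dehydrogenase, were the members that passed the test as higher with the inhibitor, and their upstream sequences are shown so that the letters searched for can be seen. The RefSeq sequences (GRCm38.p6) are the 250 bases before the start site, 5' to 3' on the gene's own strand, and capitals mark AGGTCA, the hexamer to which PPAR and related nuclear receptors bind, on either strand. The Cpt1a stretch is chr19:3323051-3323300 on the plus strand and that of Acads chr5:115119347-115119596 on the minus strand. GENCODE M21 starts Cpt1a further upstream than RefSeq does (gene at chr19:3322334-3385733 in mm10), so that stretch lies within its annotated gene, while Acads (chr5:115110299-115119346) ends where its stretch begins.
Cpt1a: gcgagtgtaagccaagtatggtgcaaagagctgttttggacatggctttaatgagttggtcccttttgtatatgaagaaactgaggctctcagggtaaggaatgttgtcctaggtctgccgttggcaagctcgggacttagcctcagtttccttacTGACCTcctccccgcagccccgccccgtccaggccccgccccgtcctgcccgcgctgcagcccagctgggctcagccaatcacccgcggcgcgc
Acads: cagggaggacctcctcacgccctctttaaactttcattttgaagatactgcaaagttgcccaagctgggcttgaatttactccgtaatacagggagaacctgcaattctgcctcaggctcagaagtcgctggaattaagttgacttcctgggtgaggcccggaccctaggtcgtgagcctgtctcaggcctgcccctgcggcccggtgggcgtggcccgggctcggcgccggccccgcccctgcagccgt
Cpt1a held the hexamer once, as TGACCT read on its own strand, with its first base 94 bases before the start site, and Acads held none. Windows were listed for 24 of the 30 genes, each with 250 bases before and 50 after the start site. AGGTCA was found in 4 of the 24, namely Acadm, Acadvl, Cd36 and Cpt1a (16.7%), and in 16.3% of all 32851 windows. No member window held the direct repeat of AGGTCA spaced by 1 base that PPAR binds with RXR (0.0396% of all windows), TCAAGGTCA of the estrogen-related receptors (0.423%), the E-box CACGTG (7.15%) or TGACGTCA of CREB (1.79%). Both strands were searched, and TCAAGGTCA and the direct repeat contain AGGTCA.

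In C57BI6 tumours, with 4 libraries per group, the inhibitor was compared with vehicle. None of the 30 genes passed the edgeR test at an adjusted p under 0.05, where 0.312% of the 17294 genes tested did. At an unadjusted p under 0.05 there were 3 members (7.96% of all genes), and DESeq2 and limma voom each called 0. The median log2 fold change was 0.01 over the members and -0.01 over all genes tested. Of the 25 genes at 5 CPM or more, the 24 other than Cd36 lay between -0.33 and 0.20, with all 95% intervals between -0.56 and 0.44, which is 0.677-fold to 1.36-fold.

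**Figure D1:**
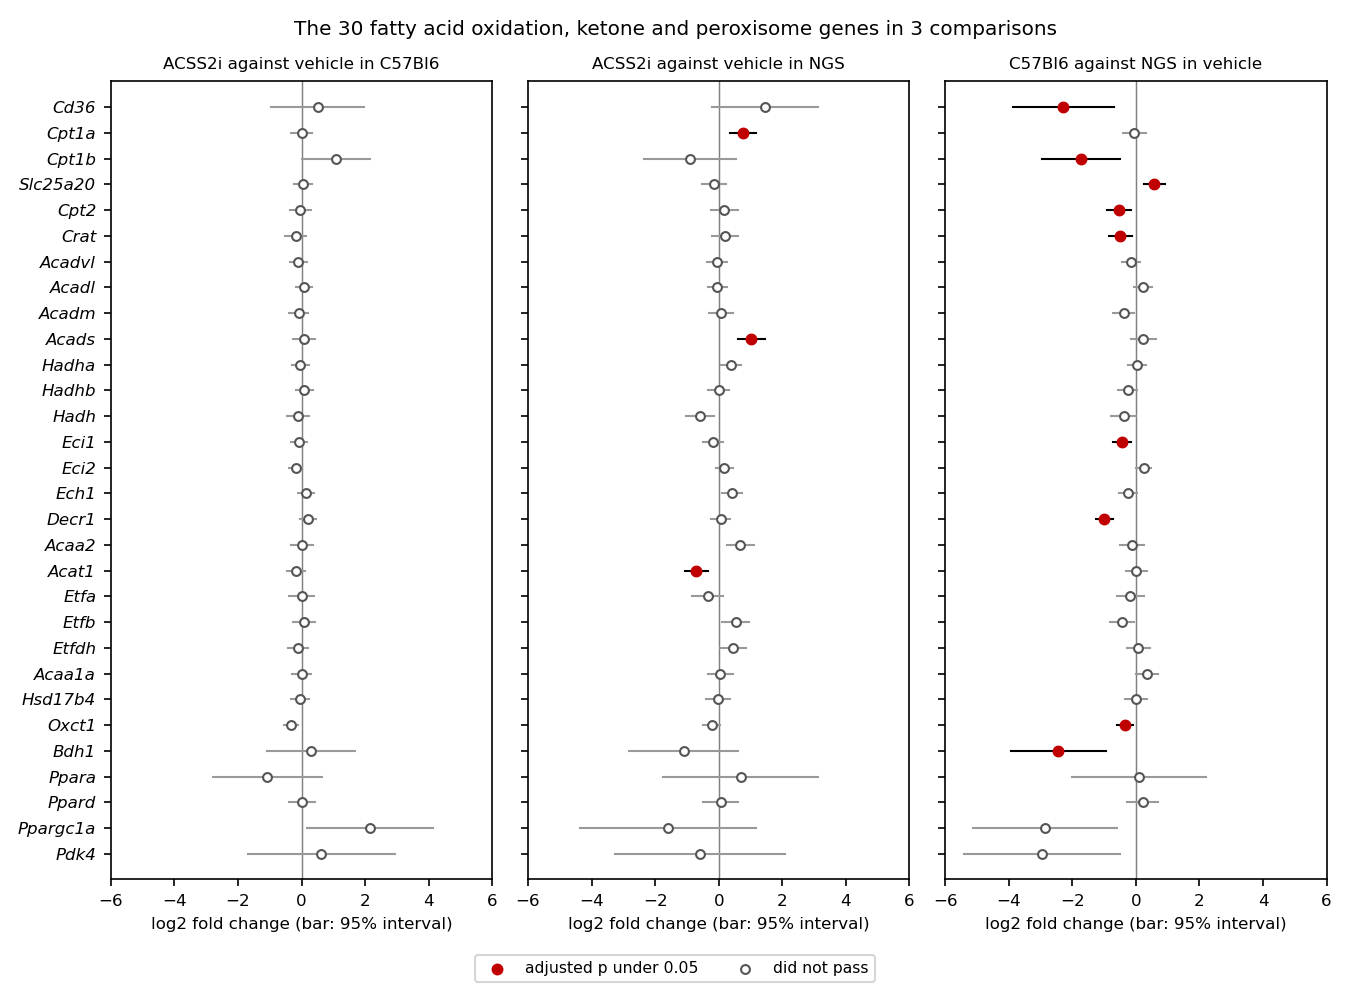
Log2 fold change of each of the 30 genes (point) with its 95% interval (bar) in 3 comparisons, ordered by role from uptake at the top to regulators at the bottom. Filled points passed the edgeR test at an adjusted p under 0.05: 0 genes in C57BI6 tumours, 3 in NGS tumours and 9 between the hosts in vehicle.

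In the carnitine shuttle, Cpt1a, Slc25a20 and Cpt2 lay near 0, while Cpt1b is given with the low genes. Cpt1a was at 30.4, 30.9, 34.5 and 43.2 CPM in C57BI6 vehicle and at 39.8, 32.1, 31.0 and 37.2 CPM in C57BI6 ACSS2i. The groups overlapped, and the log2 fold change was 0.01 ± 0.15 (SE, edgeR adjusted p = 1). Slc25a20, the carnitine-acylcarnitine carrier, was at 0.05 ± 0.13, and Cpt2, which remakes the acyl-CoA inside the mitochondrion, at -0.04 ± 0.16. The dehydrogenases Acadvl, Acadl, Acadm and Acads, for very long, long, medium and short chains, lay between -0.10 and 0.09. Both subunits of the trifunctional protein, Hadha (-0.04 ± 0.12) and Hadhb (0.09 ± 0.12), were as close to 0, as were the flavoprotein genes Etfa (0.00 ± 0.18), Etfb (0.09 ± 0.16) and Etfdh (-0.13 ± 0.15). The peroxisomal genes Acaa1a, a thiolase, and Hsd17b4, the multifunctional enzyme, were at 0.00 ± 0.14 and -0.05 ± 0.14.

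Oxct1, the enzyme that activates acetoacetate for use as fuel, had the smallest p among the members in C57BI6 tumours. It was at 231, 255, 225 and 299.9 CPM in vehicle and at 215, 195, 195 and 199 CPM in ACSS2i. Every treated library lay below every vehicle library, and the log2 fold change was -0.33 ± 0.11, but the adjusted p was 0.326 over all genes by edgeR. Eci2, an isomerase for unsaturated chains, was the other member whose treated libraries all lay lower (-0.19 ± 0.10, edgeR adjusted p = 0.713). These 2 genes are 6.67% of the members, where 4.28% of all genes tested had treated libraries all below vehicle. Decr1, the 2,4-dienoyl-CoA reductase, was at 0.20 ± 0.12, and its groups overlapped.

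Ppargc1a and Cpt1b also had an unadjusted p under 0.05, and in both a single treated library was the highest. Ppargc1a was at 0.0558, 0.112, 0.114 and 0.302 CPM in C57BI6 vehicle and at 0.339, 0.248, 1.95 and 0.198 CPM in C57BI6 ACSS2i. Its log2 fold change of 2.15 ± 0.93 (edgeR adjusted p = 0.554) was 0.81 without C57BI6 ACSS2i replicate 3. Cpt1b was at 0.726, 0.894, 0.743 and 0.422 CPM in vehicle and at 1.24, 0.793, 3.06 and 0.891 CPM in ACSS2i. Its 1.09 ± 0.51 did not pass by edgeR and was 0.48 without that library, which also held the most skeletal muscle marker RNA of its host, 5549 CPM summed over 24 muscle genes against 98.4 to 575 in the other treated libraries. The part of muscle RNA in these values was not tested. Pdk4, at 0.558, 0, 0.171 and 0.0603 CPM in vehicle and 0.169, 0.0992, 0.946 and 0.0495 CPM in ACSS2i, was again highest in treated replicate 3 (log2 fold change 0.62 ± 1.08). Ppara was at 0.335, 1.29, 0.343 and 0.181 CPM in vehicle and 0, 0.248, 0.556 and 0.198 CPM in ACSS2i (-1.07 ± 0.80), with vehicle replicate 2 above all others.

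In NGS tumours, with 3 libraries in each group, edgeR called 2 members higher with the inhibitor and 1 lower. Acads and Cpt1a were higher and Acat1, the mitochondrial acetoacetyl-CoA thiolase, was lower. By edgeR these are 3 of the 30 members, 6.67% higher and 3.33% lower, against 2.69% of all genes tested (1.32% higher and 1.38% lower). DESeq2 called 5 members, adding Acaa2 and Hadh, limma voom called 0, and 9 had an unadjusted p under 0.05 (22.1% of all genes). The median of the members was 0.05 and that of all genes -0.01. The edgeR calls come from 1 model of the 4 groups, with a spread per gene shared by both hosts. With the NGS groups fitted alone, from fewer libraries, 0 members and 9 of all genes passed. NGS libraries varied more within a group. Over genes at a mean log2 CPM of 5 or more, their median SD (log2 CPM) reached 0.168 under vehicle and 0.208 under ACSS2i. C57BI6 libraries stood at 0.118 under vehicle and 0.0983 under ACSS2i.

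Acads was at 37.6, 38.1 and 49.6 CPM in NGS vehicle and at 68.4, 108 and 80.0 CPM in NGS ACSS2i. All treated libraries were above all vehicle libraries, and the log2 fold change was 1.03 ± 0.20 (edgeR adjusted p = 0.0178), a 2.04-fold rise with a 95% interval of 1.52 to 2.74. Replicate 2 was the highest treated library, and without it the value was 0.85 (adjusted p = 0.0619). The call was also lost without NGS vehicle replicate 1 or 2. The other acyl-CoA dehydrogenases did not pass: Acadvl was at -0.05 ± 0.15, Acadl at -0.04 ± 0.14 and Acadm at 0.07 ± 0.17.

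Cpt1a was at 36.9, 29.8 and 40.5 CPM in NGS vehicle and at 46.5, 74.7 and 60.9 CPM in NGS ACSS2i. The groups did not overlap, and the log2 fold change was 0.76 ± 0.19 (edgeR adjusted p = 0.0469), a 1.69-fold rise with a 95% interval of 1.28 to 2.24. The p lay close to the threshold: leaving out 1 library at a time, the call was lost for 12 of the 14 libraries, all but NGS ACSS2i replicate 1 and C57BI6 vehicle replicate 4. Without NGS ACSS2i replicate 2 the value was 0.61 (adjusted p = 0.145). The rest of the shuttle did not pass, with Slc25a20 at -0.15 ± 0.18, Cpt2 at 0.18 ± 0.20 and Crat, carnitine acetyltransferase, at 0.20 ± 0.19. Cpt1b was at 1.01, 4.26 and 1.82 CPM in vehicle and at 1.60, 0.988 and 1.15 CPM in ACSS2i (-0.90 ± 0.68).

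Among the thiolases, 1 called gene fell and the other gene pointed up. Acat1 (chr9:53580522-53610382, minus strand) was at 40.4, 40.6 and 49.4 CPM in NGS vehicle and at 29.4, 23.0 and 27.4 CPM in NGS ACSS2i. Every treated library was lower, and the log2 fold change was -0.70 ± 0.17 (edgeR adjusted p = 0.0439), 0.614-fold with a 95% interval of 0.476 to 0.792. Leaving out 1 library at a time, the call was lost for 11 of the 14, all but NGS ACSS2i replicate 1 and C57BI6 vehicle replicates 2 and 4, and the value was -0.60 without NGS ACSS2i replicate 2 (adjusted p = 0.143). Acaa2, a 3-ketoacyl-CoA thiolase, was at 32.7, 33.6 and 27.3 CPM in vehicle and at 34.5, 70.4 and 46.5 CPM in ACSS2i. Its treated libraries were all higher, but its 0.68 ± 0.20 did not pass (edgeR adjusted p = 0.069).

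**Figure D2:**
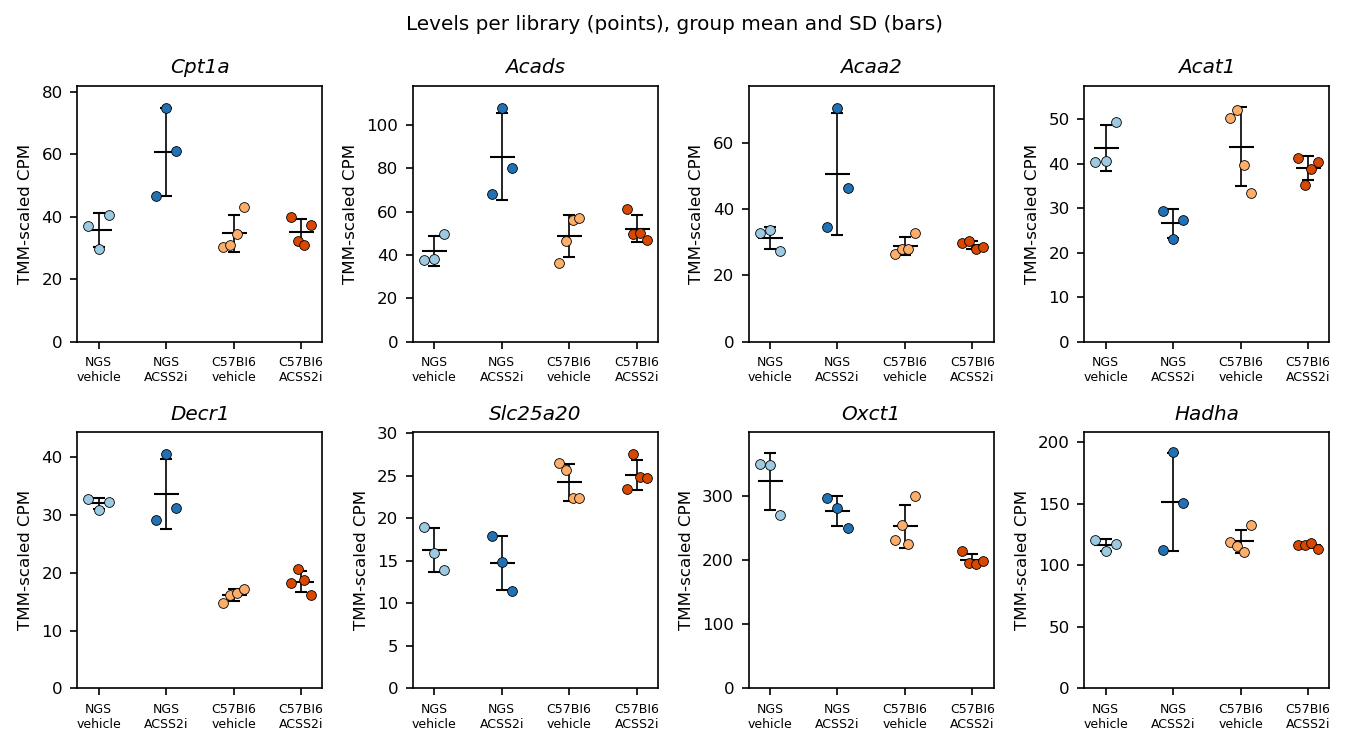
TMM-scaled CPM of 8 genes in every library (points) by group, with the group mean and SD (bars). Acads and Cpt1a were higher and Acat1 lower in the 3 NGS ACSS2i libraries than in the 3 NGS vehicle libraries, Decr1 was lower and Slc25a20 higher in both C57BI6 groups than in both NGS groups, and the C57BI6 groups overlap in all of these genes except Oxct1.

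Hadh, the short-chain hydroxyacyl-CoA dehydrogenase, was also lower in all NGS ACSS2i libraries (57.7, 27.3 and 56.6 CPM) than in vehicle (81.4, 61.9 and 71.1 CPM), but did not pass (-0.59 ± 0.20, edgeR adjusted p = 0.115). Thus 3 of the 30 members had treated libraries all higher and 2 (6.67%) all lower, beside 8.49% and 10.3% of all genes. Hadha and Hadhb, neighbours on chromosome 5 that are transcribed away from each other, did not share a value: Hadha was at 0.38 ± 0.15 (adjusted p = 0.151 by edgeR) and Hadhb at -0.01 ± 0.16. Of the flavoprotein genes, Etfb was at 0.53 ± 0.19 and Etfdh at 0.45 ± 0.19, while Etfa was at -0.35 ± 0.23, and none passed. Ech1, an isomerase for unsaturated chains, was at 0.41 ± 0.15 (edgeR adjusted p = 0.121), and Eci1, Eci2 and Decr1 lay between -0.19 and 0.18.

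The highest library was often NGS ACSS2i replicate 2, the shallowest of all 14 with 2846161 counts. Among the 25 members at 5 CPM or more it was the highest of the 6 NGS libraries for 11 (44.0%) and the lowest for 4 (16.0%). Over the 11063 genes of at least that level it was the highest for 27.5% and the lowest for 30.9%. Cd36 was highest in that library too, at 14.9, 13.7 and 41.9 CPM in vehicle and 11.2, 130.0 and 52.7 CPM in ACSS2i. Its groups overlapped, and its 1.45 ± 0.78 did not pass (edgeR adjusted p = 0.288). The part that this library's depth has in these values was not tested.

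The peroxisomal members did not pass in NGS tumours, with Acaa1a at 0.05 ± 0.18 and Hsd17b4 at -0.02 ± 0.18. For ketone use, Oxct1 was at 349.7, 348 and 271 CPM in vehicle and at 297, 281 and 251 CPM in ACSS2i, groups that overlapped (-0.23 ± 0.13, edgeR adjusted p = 0.313). Bdh1, the hydroxybutyrate dehydrogenase, was at 5.25, 0.897 and 0.911 CPM in vehicle and 0.801, 1.65 and 0.920 CPM in ACSS2i (-1.11 ± 0.81), and without NGS vehicle replicate 1 it turned to 0.28. That library also stood apart in skin markers, given with the other marker sums. The regulators were low or variable: Ppara was at 0.606, 0.673 and 0.228 CPM in vehicle and 1.60, 0.658 and 0.230 CPM in ACSS2i (0.69 ± 1.14). Ppargc1a was at 0, 2.47 and 0.911 CPM and then at 0.534, 0.329 and 0.230 CPM (-1.59 ± 1.30), and Pdk4 at 0.808, 2.91 and 1.14 CPM and then at 0.801, 2.63 and 0 CPM (-0.59 ± 1.26). Their intervals span several-fold changes in either direction, so neither a rise nor a fall of these 3 genes could be seen at this depth. Ppard, the ubiquitous receptor of the family, was at 0.06 ± 0.25.

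The difference between the inhibitor's effects in the hosts was tested as an interaction, C57BI6 minus NGS. None of the 30 members passed by edgeR, where 0.0173% of all genes did, and 9 members had an unadjusted p under 0.05 (13.8% of all genes). Acads differed by -0.94 ± 0.26 (edgeR adjusted p = 0.207), Cpt1a by -0.75 ± 0.24 (0.238) and Acaa2 by -0.67 ± 0.25 (0.288). DESeq2 called 1 member, Acads (-0.95, adjusted p = 0.0335), and limma voom 0. By edgeR, then, a member called in NGS and not in C57BI6 tumours was not shown to differ between them. The signs of the separate effects, which share no libraries, were the same in 15 of 30 members. Acads was at 1.03 in NGS and 0.09 in C57BI6, Cpt1a at 0.76 and 0.01, and Acat1 at -0.70 and -0.17.

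**Figure D3:**
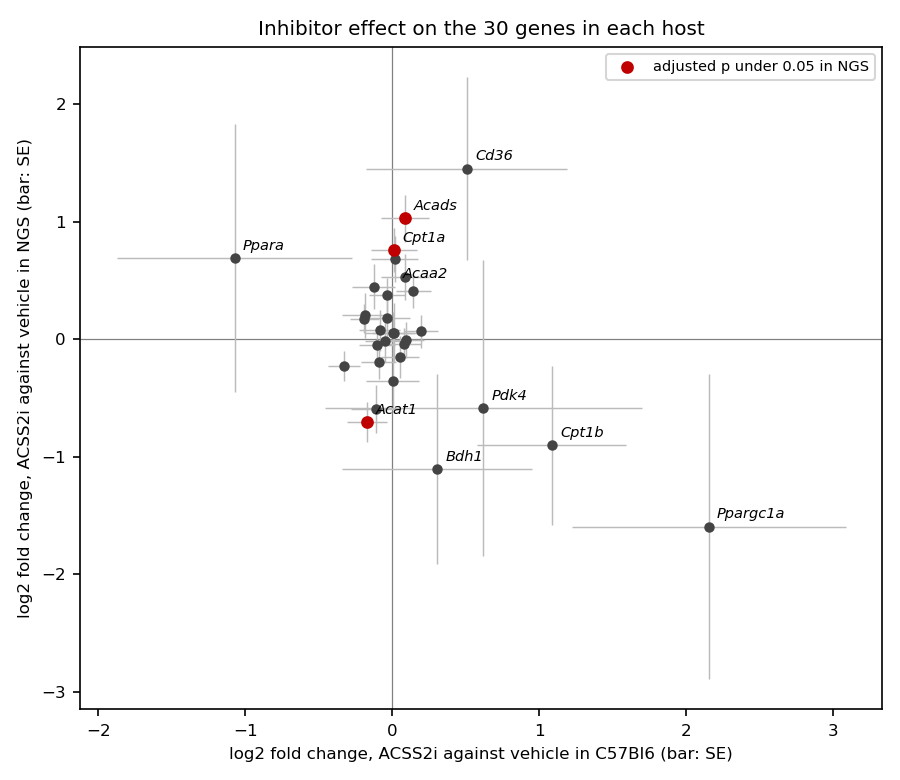
Log2 fold change with the inhibitor in C57BI6 tumours (x axis) and in NGS tumours (y axis) for the 30 genes, with bars of 1 SE. The 24 genes at 5 CPM or more other than Cd36 lie from -0.33 to 0.20 on the x axis and from -0.70 to 1.03 on the y axis. The genes with wide bars are Cd36 and those under 5 CPM.

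Between the hosts in vehicle, 8 members were lower and 1 higher in C57BI6 than in NGS tumours. Those are 26.7% and 3.33% of the members, where 14% and 18.8% of all genes tested passed in those directions and 32.8% in either. DESeq2 called 13 members and limma voom 11. The medians were -0.21 over the members and 0.01 over all genes. In 11 members (36.7%) all C57BI6 libraries lay below all NGS libraries, and in 2 (6.67%) all lay above, beside 17.1% and 23.5% of all genes. The vehicle libraries here also serve as controls of the comparisons above, so the values are given side by side and no relation between them was drawn.

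Decr1, which removes a conjugated bond left by polyunsaturated chains, showed the host difference with the smallest p among the members. The gene lies at chr4:15917240-15945507 on the minus strand. It was at 32.7, 30.9 and 32.3 CPM in NGS vehicle and at 14.7, 16.2, 16.5 and 17.1 CPM in C57BI6 vehicle. The groups lay far apart relative to their spread, with a log2 fold change of -0.99 ± 0.13 (edgeR adjusted p = 3.5e-05), 0.504-fold with a 95% interval of 0.416 to 0.609. The call held in each of 24 alternative analyses, with adjusted p up to 0.0059. The treated libraries, which that contrast did not compare, were at 29.1, 40.5 and 31.3 CPM in NGS and at 18.2, 20.7, 18.7 and 16.2 CPM in C57BI6, again with no overlap. Eci1, the other called gene for unsaturated chains, was at 27.5, 25.1 and 34.2 CPM in NGS vehicle and at 18.4, 24.1, 23.9 and 19.4 CPM in C57BI6 vehicle (-0.43 ± 0.13, edgeR adjusted p = 0.0221). Its highest C57BI6 library lay just below its lowest NGS library, and its call was lost without NGS vehicle replicate 3 or C57BI6 vehicle replicate 1 or 4, or with libraries thinned to the shallowest (adjusted p = 0.0729), and its adjusted p reached 0.273 over all alternatives. Eci2 was at 0.25 ± 0.11 and did not pass.

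In the carnitine shuttle 4 of 5 genes passed, and not all in the same direction. Slc25a20 (chr9:108662088-108684641, plus strand) was higher in C57BI6, at 26.5, 25.7, 22.3 and 22.4 CPM in vehicle against 19.0, 15.9 and 13.9 CPM in NGS vehicle (0.57 ± 0.15, edgeR adjusted p = 0.0104, 1.49-fold). In the treated libraries it was at 23.4, 27.6, 24.8 and 24.7 CPM in C57BI6 and at 17.9, 14.8 and 11.5 CPM in NGS. The hosts did not overlap in either treatment. With all libraries thinned to the depth of the shallowest, Slc25a20 was at 0.48 and its call was lost (edgeR adjusted p = 0.0569). Cpt2 was lower, at 7.76, 10.1, 9.65 and 9.53 CPM against 14.3, 13.5 and 12.5 CPM (-0.54 ± 0.18, edgeR adjusted p = 0.0298), and lost its call without NGS vehicle replicate 1 or 2 or C57BI6 vehicle replicate 1, and after thinning (adjusted p = 0.0623). Crat was lower, at 12.8, 12.9, 16.0 and 13.6 CPM against 16.8, 22.6 and 18.9 CPM (-0.49 ± 0.17, edgeR adjusted p = 0.0405). Crat lost its call without NGS vehicle replicate 2 or 3, NGS ACSS2i replicate 3, C57BI6 vehicle replicate 1, 2 or 4, or C57BI6 ACSS2i replicate 1 or 4. Cpt1a did not differ beyond its error (-0.04 ± 0.17, 95% interval -0.41 to 0.33), and Cpt1b is described with the muscle markers.

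Both genes of ketone use were lower in C57BI6. Oxct1 was at 225 to 299.9 CPM in C57BI6 vehicle and 271 to 349.7 CPM in NGS vehicle, groups that overlapped, with a log2 fold change of -0.35 ± 0.12 (edgeR adjusted p = 0.0315). In the treated libraries C57BI6 (195 to 215 CPM) lay below NGS (251 to 297 CPM). The call of Oxct1 was lost without NGS vehicle replicate 1 or 2 or C57BI6 vehicle replicate 1, 2 or 3 (adjusted p up to 0.129 over all alternatives). Bdh1 was at 0.279, 0.615, 0.343 and 0.482 CPM in C57BI6 vehicle against 5.25, 0.897 and 0.911 CPM in NGS vehicle (-2.44 ± 0.70, edgeR adjusted p = 0.0151). The 3 NGS libraries held 26, 4 and 4 counts of it, and without the first the value fell to -1.05 and did not pass (adjusted p = 0.327). That library held 1011 CPM of skin markers, against 26.5 and 17.5 CPM in the other NGS vehicle libraries, and the part of skin RNA in this value was not tested.

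Of the 9 members called between the hosts, 6 also had treated libraries that did not overlap in the same direction: Decr1, Slc25a20, Cpt2, Crat, Eci1 and Oxct1 (66.7%). Of all 5666 genes called between the hosts in vehicle, 72% did. Treated Cpt2 was at 12.6, 20.7 and 12.9 CPM in NGS and at 8.81, 9.62, 9.51 and 8.22 CPM in C57BI6. Treated Crat was at 17.6, 26.7 and 23.0 CPM and at 11.5, 9.87, 14.2 and 13.0 CPM, and treated Eci1 at 24.3, 25.7 and 25.99 CPM and at 20.8, 20.4, 19.5 and 19.9 CPM. Cd36, Cpt1b and Bdh1 overlapped between the treated hosts.

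The remaining steps did not pass between the hosts by edgeR, while DESeq2 also called Etfb and Acadm (adjusted p = 0.0497 and 0.0445) and limma voom Etfb (0.0288), all as lower in C57BI6. The dehydrogenases lay between -0.39 (Acadm) and 0.23, the thiolases at -0.12 ± 0.18 (Acaa2) and 0.01 ± 0.15 (Acat1), and Hadha, Hadhb and Hadh at 0.03, -0.26 and -0.38. Etfb was at -0.44 ± 0.18 (edgeR adjusted p = 0.0711), Etfa at -0.18 ± 0.20 and Etfdh at 0.07 ± 0.17. Acaa1a was at 0.35 ± 0.16 and Hsd17b4 at 0.01 ± 0.16. Ech1 was at -0.24 ± 0.13, Ppard at 0.21 ± 0.23 and Ppara at 0.09 ± 0.99.

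Libraries differed in RNA of muscle, fat and skin. The sum of 24 skeletal muscle markers ran from 944 to 13516 CPM in NGS vehicle, from 78.3 to 1624 in NGS ACSS2i, from 85.3 to 1921 in C57BI6 vehicle and from 98.4 to 5549 in C57BI6 ACSS2i, with at most 6 of the 24 at 0 in a library. Of the 23 muscle markers tested, 0 passed with the inhibitor in either host by edgeR, DESeq2 or limma voom (3 in C57BI6 and 4 in NGS at an unadjusted p under 0.05), 5 were lower in C57BI6 than in NGS vehicle, and the median log2 fold changes were 1.68 in C57BI6, -3.89 in NGS and -3.83 between the hosts. The sum of 17 adipocyte markers ran from 271 to 2060 CPM in NGS vehicle, from 481 to 1299.7 in NGS ACSS2i, from 26.05 to 256 in C57BI6 vehicle and from 138 to 520.1 in C57BI6 ACSS2i, with at most 7 at 0. Between the hosts 5 of 16 adipocyte markers were lower in C57BI6 (median -2.46), and with the inhibitor 0 passed by edgeR, DESeq2 or limma voom in either host, with 0 in C57BI6 and 1 in NGS at an unadjusted p under 0.05.

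The sum of 10 skin markers was 1011 CPM in NGS vehicle replicate 1 and 545 CPM in NGS ACSS2i replicate 1, both with 0 of the 10 markers undetected, and 10.9 to 26.5 CPM in the other 12 libraries. By edgeR 7 of the 8 skin markers tested were lower in C57BI6 than in NGS vehicle (DESeq2 called 2 and limma voom 3), and 0 passed with the inhibitor in either host by any of these tools, with 0 at an unadjusted p under 0.05. In an alternative chosen after the data were seen, these 2 libraries were left out. Between the hosts the calls of Bdh1 (-1.05, edgeR adjusted p = 0.324), Oxct1 (-0.29, 0.118) and Cpt2 (-0.48, 0.0771) were then lost, while Decr1 stayed at -0.97 (0.000217) and Slc25a20 was at 0.71 (0.00362). In NGS tumours Acads (1.09, edgeR adjusted p = 0.0226), Cpt1a (0.94, 0.0274) and Acat1 (-0.83, 0.0435) passed in that fit, as did Hadha (0.58, 0.0274) and Acaa2 (0.93, 0.02004).

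Cpt1b, Hadhb, Etfa, Ppara, Ppargc1a and Pdk4 had their highest library in the library richest in muscle markers in 3 of the 4 groups. The share of all genes that did so was not counted, so no relation to muscle RNA was drawn from it. Cpt1b was lower in C57BI6 vehicle (0.422 to 0.894 CPM) than in NGS vehicle (1.01 to 4.26 CPM), with a log2 fold change of -1.74 ± 0.57 (edgeR adjusted p = 0.031). Without the 3 libraries highest in muscle markers, NGS vehicle replicates 2 and 3 and C57BI6 ACSS2i replicate 3, it was at -0.50 (adjusted p = 0.673). Single libraries also ended its call: NGS vehicle replicate 2 and C57BI6 vehicle replicates 1, 3 and 4. Ppargc1a (-2.86 ± 1.07, adjusted p = 0.0519) and Pdk4 (-2.96 ± 1.15, adjusted p = 0.062) did not pass by edgeR (DESeq2 called both and limma voom called Pdk4), and without the same 3 libraries they were at 4.01 and -1.94. NGS vehicle is then a single library, assumed to vary like the other groups, and it held 0 counts of Ppargc1a. Slc25a20 was at 0.38 (adjusted p = 0.297) and Decr1 at -0.99 (0.0059) in that fit. Bdh1 was at -3.55 in it. NGS vehicle is there replicate 1 alone, with 26 counts of Bdh1 against 4 and 4 in NGS vehicle replicates 2 and 3. Leaving out NGS vehicle replicate 1 instead put Bdh1 at -1.05.

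Cd36, which fat and endothelial cells and macrophages carry, and Ech1 had their highest library in the library richest in adipocyte markers in 3 of the 4 groups. The share of all genes that did so was not counted here either, and no relation to fat RNA was drawn from it. Cd36 was at 4.74, 0.783, 7.88 and 5.91 CPM in C57BI6 vehicle and at 13.7 to 41.9 CPM in NGS vehicle, with no overlap (-2.28 ± 0.75, edgeR adjusted p = 0.0299). The C57BI6 ACSS2i libraries were at 3.62, 13.7, 5.62 and 4.41 CPM. Without the 3 libraries highest in adipocyte markers, NGS vehicle replicate 3 and NGS ACSS2i replicates 2 and 3, the host difference was -1.54 (adjusted p = 0.0989). Leaving out NGS vehicle replicate 3 alone gave -1.55 (edgeR adjusted p = 0.185), and leaving out the muscle-rich libraries -1.60 (0.369). The call was also lost without C57BI6 vehicle replicate 1 or 2. The sums of 14 macrophage markers (2700 to 3873 CPM in NGS vehicle, 2985 to 4301 in C57BI6 vehicle) and 14 endothelial markers (377 to 482 and 353 to 375 CPM) varied less. Their genes still differed between the hosts in vehicle by edgeR. Of the macrophage markers 2 were higher and 5 lower in C57BI6, and of the endothelial markers 0 and 3, beside 18.8% and 14% of all genes. The sums therefore do not show that these cells were alike in the hosts. In C57BI6 the sum of 12 T and NK cell markers was 13.1 to 25.0 CPM with vehicle and 54.2 to 80.6 CPM with the inhibitor. Of these 12, 1 passed by edgeR, 5 by DESeq2 and 8 by limma voom. The 14 macrophage markers all pointed up in C57BI6, with 0, 2 and 2 passing. In NGS 0 of the 12 passed by any tool, and 0, 3 and 0 of the 14 macrophage markers. The inhibitor's effects in NGS were also fitted without the muscle-rich or the adipocyte-rich libraries, and no call remained: without the muscle-rich libraries Acads was at 1.1995 (adjusted p = 0.131), Cpt1a at 0.73 (adjusted p = 0.234) and Acat1 at -0.58 (adjusted p = 0.282). Without the adipocyte-rich libraries they were at 0.87 (adjusted p = 0.242), 0.49 (adjusted p = 0.453) and -0.45 (adjusted p = 0.517), with 1 library left in NGS ACSS2i. The part of any of these cell types in the members' values was not tested.

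**Figure D4:**
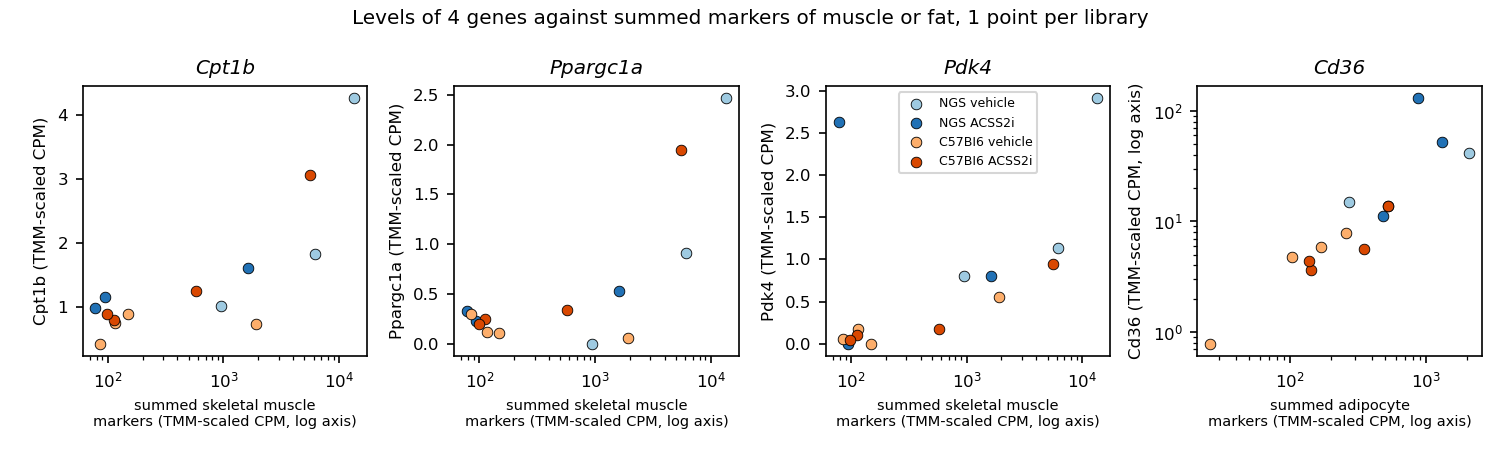
TMM-scaled CPM of Cpt1b, Ppargc1a and Pdk4 against the summed CPM of 24 skeletal muscle markers (log axis), and of Cd36 (log axis) against the summed CPM of 17 adipocyte markers (log axis), with 1 point per library coloured by group. NGS vehicle replicate 2, at 13516 CPM of muscle markers, is highest for Cpt1b (4.26), Ppargc1a (2.47) and Pdk4 (2.91), and for Cd36 an NGS vehicle and a C57BI6 ACSS2i library coincide near 13.7.

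Other genes of the same pathways, 128 listed by function, were described in the same way, and 119 of them were tested. In C57BI6 tumours 0 of the 119 passed by edgeR, where 0.312% of all genes did, and DESeq2 and limma voom called 2 each. At an unadjusted p under 0.05 there were 9 (7.96% of all genes), and the median was 0.01. The smallest p values by edgeR were of Ucp2, an uncoupling protein (0.57 ± 0.13, edgeR adjusted p = 0.0893), and Ppargc1b, a coactivator related to Ppargc1a (0.61 ± 0.15, 0.119). In NGS tumours 1 rose and 2 fell (0.84% and 1.68%) by edgeR, beside 1.32% and 1.38% of all genes. DESeq2 called 10 there and limma voom 0. For the difference between the hosts' effects edgeR called 0, DESeq2 3 and limma voom 0. By edgeR 21 had an unadjusted p under 0.05 (13.8% of all genes). Ivd, isovaleryl-CoA dehydrogenase of leucine breakdown, was at 14.02 ± 2.22 CPM with vehicle and rose to 23.8 ± 5.75 CPM (SD, 3 libraries each, 0.77 ± 0.18, edgeR adjusted p = 0.0412). Lpin1, a phosphatidate phosphatase and coactivator of PPAR alpha, fell from 17.7 ± 3.84 to 7.45 ± 0.264 CPM (-1.24 ± 0.21, edgeR adjusted p = 0.0108). Acox2, a peroxisomal oxidase of branched chains, fell from 23 counts in the vehicle libraries to 1 in the treated ones (edgeR adjusted p = 0.0407).

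By list, the edgeR calls in NGS tumours were 1 of 20 further mitochondrial oxidation genes (Ivd), 1 of 37 peroxisome genes (Acox2), 1 of 26 regulators (Lpin1), and no gene of the 15 for uptake and activation, the 10 for ketones or the 17 PPAR targets, of which 4, 1 and 6 had an unadjusted p under 0.05. DESeq2 called 0, 1 and 1 genes of these lists and limma voom 0 of each. Over all genes, 22.1% had an edgeR unadjusted p under 0.05 in NGS tumours. Lists share some genes. The median log2 fold change of the PPAR targets was 0.32 in NGS and 0.36 in C57BI6 tumours, and those of the other lists lay between -0.21 and 0.09. Plin2, a lipid droplet coat protein among the PPAR targets, was at 0.79 ± 0.23 in NGS and did not pass (edgeR adjusted p = 0.0711), and neither did Angptl4, a lipase inhibitor (0.66 ± 0.25, 0.146).

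Between the hosts in vehicle, 11 of the 119 genes were higher (9.24%) and 17 lower (14.3%) in C57BI6, beside 18.8% and 14% of all genes. Sirt5, which removes acyl groups such as succinyl from mitochondrial enzymes, was at 6.11 ± 1.13 CPM in NGS vehicle and 45.7 ± 5.85 CPM in C57BI6 vehicle (2.89 ± 0.18, edgeR adjusted p = 1.5e-08). Decr2, the peroxisomal counterpart of Decr1, went the other way from it: it was at 21.1 ± 2.56 CPM in NGS (n = 3) and 103 ± 11.1 CPM in C57BI6 (n = 4), a log2 fold change of 2.28 ± 0.19 (edgeR adjusted p = 3.24e-07). Echs1, the short-chain enoyl-CoA hydratase, was higher (0.68 ± 0.12, edgeR adjusted p = 0.000713), and Acsl3, a fatty acid activating enzyme, at 0.66 ± 0.13 (0.00104). Lower were Fabp5, a fatty acid carrier (-1.37 ± 0.24, edgeR adjusted p = 0.000599), Phyh, which starts the oxidation of phytanic acid (-1.42 ± 0.28, 0.00125), Angptl4 (-1.09 ± 0.23, 0.00251) and Cat, catalase (-0.57 ± 0.13, 0.00354). By list, the counts of higher and lower genes were 2 and 3 of 15 for uptake and activation, 2 and 0 of 20 for mitochondrial oxidation, 4 and 4 of 37 for the peroxisome, 0 and 1 of 10 for ketones, 0 and 5 of 17 for PPAR targets, and 3 and 4 of 26 for regulators.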

How the data were processed

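The values are counts per gene, whole numbers as the authors deposited them in 1 table of 14 libraries. RSEM 1.2.3, DESeq2 and the build mm10 appear in the submitters' processing notes without their roles, and the aligner, the annotation and whether counting used the strand are not given in the sources used here. Acaa1a (with its paralog Acaa1b) and genes overlapped by others, such as Etfb, Cpt1b, Crat, Eci2, Acadvl and Oxct1, are therefore uncertain.

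Gene identifiers were matched to GENCODE M21 symbols (51596 of 51789). Genes were filtered with filterByExpr (17294 kept), scaled by TMM and fitted in 1 model of the 4 groups with the edgeR quasi-likelihood test, with Benjamini-Hochberg adjustment over all genes tested and a threshold of 0.05. R 4.3.3, edgeR 4.0.16, limma 3.58.1, DESeq2 1.42.0, Python 3.11.15, pandas 2.3.3 and matplotlib 3.10.9 were used. Alternatives were DESeq2 (test and size factors), limma voom, no filter, only the groups compared, a replicate block, libraries thinned to the shallowest, the libraries richest in muscle or adipocyte markers left out, the 2 richest in skin markers left out (chosen after the data were seen), and each library left out in turn. Library totals of 2846161 to 20344809 counts set the precision of low genes: 3 counts over a group equal 0.217 CPM for NGS vehicle and 0.270 CPM for NGS ACSS2i, and for C57BI6 0.0429 CPM with vehicle and 0.0395 CPM with ACSS2i, counting error only.

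Tested on simulated data of 17294 genes, 100 genes changed 2-fold gave 74 calls for the inhibitor in C57BI6, 53 in NGS, 37 for the difference between the effects and 61 between hosts. With 100 genes changed 4-fold the calls were 95, 90, 85 and 89. Unchanged genes gave 14, 2, 8 and 7 false calls in the same comparisons. Recovery was not split by expression level, so these rates may not hold for members with low counts. Whether the rates hold for the wider spread between NGS libraries was not tested.

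The members and all gene lists were chosen with earlier results of these data known. Values for every library are given for members past the threshold in any comparison, the 3 with the smallest p in each, and Cpt1a, Cpt1b, Pdk4, Ppara, Ppargc1a, Cd36 and Oxct1. Other members are given by range and count, and up to 4 genes per other list are named. Values per library given beyond this rule, for Hadh, were chosen after they were seen. Upstream sequences come from RefSeq (GRCm38.p6).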

Additional observations from a re-analysis of the deposited data

Results flagged for a closer look

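In groups of 4 libraries, the highest or lowest library was compared with the rest for each of 64 sets of values. For normally distributed values, chance alone sets 1 library far from the others in about 1 in 20 sets. Low counts and marker sums need not be distributed in that way, and the rate for them was not worked out. In C57BI6 vehicle, replicate 2 stood far above the others for Acadm (51.04 CPM against 39.44 to 40.92) and for Ppara (1.286 CPM against 0.1809 to 0.3427). In C57BI6 ACSS2i, replicate 3 stood above the others for Ppargc1a (1.947 CPM against 0.1981 to 0.3389) and Pdk4 (0.9456 CPM against 0.04951 to 0.1695). The same library stood above the others in the summed skeletal muscle markers, at 5549 CPM against 98.38 to 575.1. In C57BI6 vehicle, replicate 1 did so for that sum, at 1921 CPM against 85.34 to 148.5.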

How the results depend on the processing

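The count of members called with the inhibitor in C57BI6 was 0 in every alternative run. In NGS the count of 3 was 5 with DESeq2 and 0 with limma voom, with only the groups compared, with the replicate block, without the 3 libraries highest in muscle markers and without the 3 highest in adipocyte markers. The difference between the effects gave 1 member with DESeq2 and 0 otherwise. Between the hosts the count of 9 was 13 with DESeq2 and with only the groups compared, 11 with limma voom, 8 without the adipocyte-rich libraries, 6 after thinning, 5 with no filter, 4 with the block and 3 without the muscle-rich libraries. Without the 2 libraries highest in skin markers, an alternative chosen after the data were seen, 0, 5, 0 and 9 members passed in C57BI6, in NGS, for the difference and between hosts, and 117, 1073, 34 and 5221 of all genes. Over all genes, the C57BI6 count of 54 was 332 with DESeq2, 429 with limma voom, 112 with no filter, 266 with only the groups compared, 9 with the block, 26 and 151 without the muscle-rich and adipocyte-rich libraries, and 24 after thinning. The NGS count of 466 was 1546, 27, 9 (only the groups compared), 254 (block), 26 and 2 in the matching alternatives. The difference between effects (3 genes) was 296 with DESeq2, 0 with limma voom and 7 with no filter, and the host count of 5666 was 3542 with the block, 3061 without the muscle-rich libraries and 3734 after thinning. Leaving out 1 library at a time gave 15 to 122 genes in C57BI6, 118 to 1743 in NGS, 1 to 62 for the difference and 4608 to 6715 between hosts, and 0 to 0, 0 to 8, 0 to 0 and 4 to 12 members. The extremes in NGS were without ACSS2i replicate 2 (118 genes) and ACSS2i replicate 1 (1743 genes and 8 members).

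Signs turned, for members above 1 SE, in these cases. Without the muscle-rich libraries Eci2 (-0.012), Ppargc1a (5.27) and Cpt1b (0.33) turned in NGS, as did Ppargc1a for the difference (-4.46) and between hosts (4.01). Without the adipocyte-rich libraries Cd36 (-0.34), Eci2 (-0.041), Hadha (-0.035) and Crat (-0.14) turned in NGS, and Hadha (0.0052) and Ech1 (0.13) for the difference. Without NGS vehicle replicate 1, Bdh1 in NGS was at 0.28 (-1.47 to 0.28 over all single libraries left out), and without the skin-rich libraries at 0.47 (difference between effects -0.16). The fits without the libraries rich in markers of muscle or fat leave 1 library in NGS vehicle or in NGS ACSS2i, assumed to vary like the other groups, and the cause of the changes was not tested. Whether replicate numbers pair the libraries could not be decided from groups this small. With group means taken off, same-numbered libraries correlated at -0.00 to 0.09 in NGS, -0.14 to 0.15 in C57BI6 and -0.18 to 0.01 between hosts. Differently numbered libraries correlated at -0.12 to 0.08 in NGS, -0.27 to 0.35 in C57BI6 and -0.09 to 0.17 between hosts. The fit with the replicate block has fewer degrees of freedom, and 9 member values without an adjusted p were left out.

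Host, depth and any batch cannot be told apart. Genes under 5 CPM had intervals of several-fold.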
